A study of Mus musculus with 6 samples.

Results

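The genes described here are 10 genes that neurons of the brainstem use to make, package, retrieve or sense monoamines, acetylcholine and glycine: Th, Dbh, Slc6a2, Slc18a2, Tph2, Slc6a4, Chat, Slc5a7, Slc18a3 and Glra1. They were taken by symbol from tables of 24411 genes, and all 10 were found and passed the filter on low counts. RNA was sequenced from mouse cerebellum at postnatal day 18, in 3 wild-type (WT) libraries and 3 libraries from mice in which a remote enhancer of Atoh7 was knocked out (KO). Atoh7 encodes a transcription factor best known for starting retinal ganglion cell development. The labels call the replicates independent, give no strain, sex or pooling, and enter retina as the tissue of every sample. Every sample title also carries the tag Set8, and the titles do not say what it means.

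Monoamine and cholinergic neurons lie mostly in nuclei of the brainstem, and their axons enter the cerebellum. The locus coeruleus supplies noradrenaline, the raphe nuclei supply serotonin, and cholinergic fibres come largely from vestibular and pedunculopontine nuclei. Messenger RNA stays mainly in cell bodies, so genes such as Dbh and Tph2 are usually read as signs of those nuclei, although Th is also known from some Purkinje cells. Glra1 encodes the adult alpha subunit of the glycine receptor, which is abundant in brainstem and spinal cord.

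The promoters of 6 members are shown because these genes differ in the ways described below. Tph2 and Slc6a4 followed each other across libraries whatever the genotype, whereas Th, Dbh and Slc18a3 were higher in every KO library. Slc18a2 serves all monoamine neurons. Each promoter is 300 bases, from 250 before the start of the gene to 50 after it, 5′ to 3′, from RefSeq on GRCm38.p6. All 10 members matched RefSeq by symbol and 8 had a promoter entry. Capitals mark matches to the motifs named below.
Tph2 (chr10:115184973-115185272, minus strand): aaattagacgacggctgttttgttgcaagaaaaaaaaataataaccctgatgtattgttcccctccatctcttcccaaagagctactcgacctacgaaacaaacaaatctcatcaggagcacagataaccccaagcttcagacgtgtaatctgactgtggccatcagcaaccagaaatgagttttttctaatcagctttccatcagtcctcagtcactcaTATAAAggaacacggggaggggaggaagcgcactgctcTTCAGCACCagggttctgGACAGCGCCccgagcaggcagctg
Slc6a4 (chr11:76998347-76998646, plus strand): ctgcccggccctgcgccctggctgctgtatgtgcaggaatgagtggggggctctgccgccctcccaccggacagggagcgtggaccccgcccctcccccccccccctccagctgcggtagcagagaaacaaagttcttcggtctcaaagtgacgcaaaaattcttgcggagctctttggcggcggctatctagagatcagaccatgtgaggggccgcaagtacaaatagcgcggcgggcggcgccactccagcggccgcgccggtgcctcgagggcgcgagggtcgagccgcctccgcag
Slc18a2 (chr19:59260628-59260927, plus strand): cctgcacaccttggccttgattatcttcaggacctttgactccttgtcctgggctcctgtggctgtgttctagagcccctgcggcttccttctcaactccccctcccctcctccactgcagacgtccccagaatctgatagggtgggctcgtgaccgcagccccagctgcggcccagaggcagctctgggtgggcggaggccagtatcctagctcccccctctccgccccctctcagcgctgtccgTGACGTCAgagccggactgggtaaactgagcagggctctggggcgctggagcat
Th (chr7:142899946-142900245, minus strand): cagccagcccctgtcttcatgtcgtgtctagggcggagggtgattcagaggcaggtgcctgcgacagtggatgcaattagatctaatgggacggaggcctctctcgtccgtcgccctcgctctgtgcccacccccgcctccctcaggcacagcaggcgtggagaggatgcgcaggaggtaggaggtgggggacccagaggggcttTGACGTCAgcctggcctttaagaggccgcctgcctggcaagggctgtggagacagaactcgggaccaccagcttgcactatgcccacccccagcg
Dbh (chr2:27165257-27165556, plus strand): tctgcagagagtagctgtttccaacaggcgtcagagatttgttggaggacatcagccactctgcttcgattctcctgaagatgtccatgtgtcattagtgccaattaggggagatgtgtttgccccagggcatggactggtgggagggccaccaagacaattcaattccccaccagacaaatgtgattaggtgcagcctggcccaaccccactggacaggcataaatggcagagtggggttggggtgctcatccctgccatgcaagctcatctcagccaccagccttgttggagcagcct
Slc18a3 (chr14:32464801-32465100, minus strand): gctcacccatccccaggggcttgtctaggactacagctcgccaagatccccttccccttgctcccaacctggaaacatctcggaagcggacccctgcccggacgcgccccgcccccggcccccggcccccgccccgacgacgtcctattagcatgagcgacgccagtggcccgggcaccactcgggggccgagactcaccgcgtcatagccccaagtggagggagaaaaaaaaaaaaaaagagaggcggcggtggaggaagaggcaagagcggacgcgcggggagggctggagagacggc

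Motifs were searched on both strands, and no match overlapped another. The cAMP response element TGACGTCA, read by CREB proteins, was found at -45 in Th and at -4 in Slc18a2, counted from the start of the gene, and 1.79% of all 32851 promoters of this length hold it. Tph2 has a TATA box (TATAAA, in 13.6% of promoters) at -30. It also has both parts of the site of the neuronal repressor REST, TTCAGCACC at 9 and GACAGCGCC at 27, which are in 0.371% and 0.326% of promoters. Chat holds the ETS core CCGGAA (14.9%) at 14, and Slc5a7 a TATA box at -187. None of these motifs was in the windows of Dbh, Slc6a4 or Slc18a3. A match is a description of the sequence and shows no binding.

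Libraries held 46160747 to 51947647 reads, of which 16340132 to 28170761 in WT and 32556977 to 34438262 in KO were assigned to genes. Reads outside genes, introns included, made up 32.0% to 38.5% of WT and 17.1% to 17.6% of KO libraries, with no overlap between the groups. In WT replicate 3 the ribosomal RNA precursor Rn45s took 63.2% of gene reads, against 1.28% to 3.04% elsewhere, and 6015125 reads were left for other genes. WT replicate 1 had 31134 Xist reads and 0 reads of 4 Y-linked genes, and is the only library of the 6 with this female pattern. Atoh7 itself had 72, 56 and 7 reads in WT and 45, 54 and 92 in KO, and since the deletion removes an enhancer and not the gene, these reads do not check the genotype labels. Levels are given as CPM, the counts in each 1000000 reads assigned to genes, with library sizes scaled by edgeR's trimmed mean of M values (TMM), and 3 reads correspond to 0.0723 to 0.465 CPM. Of 10 genes that define retinal cells, 7 failed the filter on low counts and their summed level was 3.19 to 4.24 CPM, against 2386 to 3255 CPM for 10 genes of cerebellar neurons, so the reads match the cerebellum of the study design and not the tissue label.

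Between the genotypes, 7 of the 10 members were higher in KO and 0 were lower. The test was the quasi-likelihood F-test of edgeR, with p-values adjusted by Benjamini-Hochberg over 15519 genes and a threshold of 0.05. Of all tested genes 16.7% were called, 6.43% higher and 10.2% lower. The members were chosen with earlier results of these data known, so the contrast with all tested genes is a description only. At an unadjusted p under 0.05 the members also numbered 7 higher and 0 lower, against 5045 of 15519 tested genes in either direction. DESeq2 and limma-voom each called 7 and 0 members, and called 7.70% and 10.7% of all their tested genes higher. The same 7 genes had no overlap between the KO and WT libraries, a separation seen in 39.4% of tested genes, 18.9% higher and 20.5% lower in KO. The median log2 fold change (KO minus WT) was 0.45 over the members and -0.01 over all tested genes. In such bulk tissue more cells of a type and more RNA per cell cannot be told apart. The shares of reads outside genes separate the same groups, so genotype and read assignment cannot be told apart either. In a fit with a covariate for read assignment (log2 of outside-gene over gene reads, Rn45s left out) 1 member, Glra1, was called higher. Within genotypes this covariate differs mainly in WT replicate 3. That library had 6015125 gene reads besides Rn45s, against 27315398 and 26021719 in WT replicates 1 and 2. The fitted slope of the covariate therefore rests largely on WT replicate 3, and this fit cannot separate read assignment from genotype. Leaving out KO replicate 1 gave 4 members called higher, KO replicate 2 gave 4, KO replicate 3 gave 2 and WT replicate 1 gave 5. The share of all tested genes called higher moved too, from 6.43% to 3.61% with the covariate, to 2.27%, 1.88% and 1.56% without KO replicates 1, 2 and 3, and to 6.16% without WT replicate 1.

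**Figure D1:**
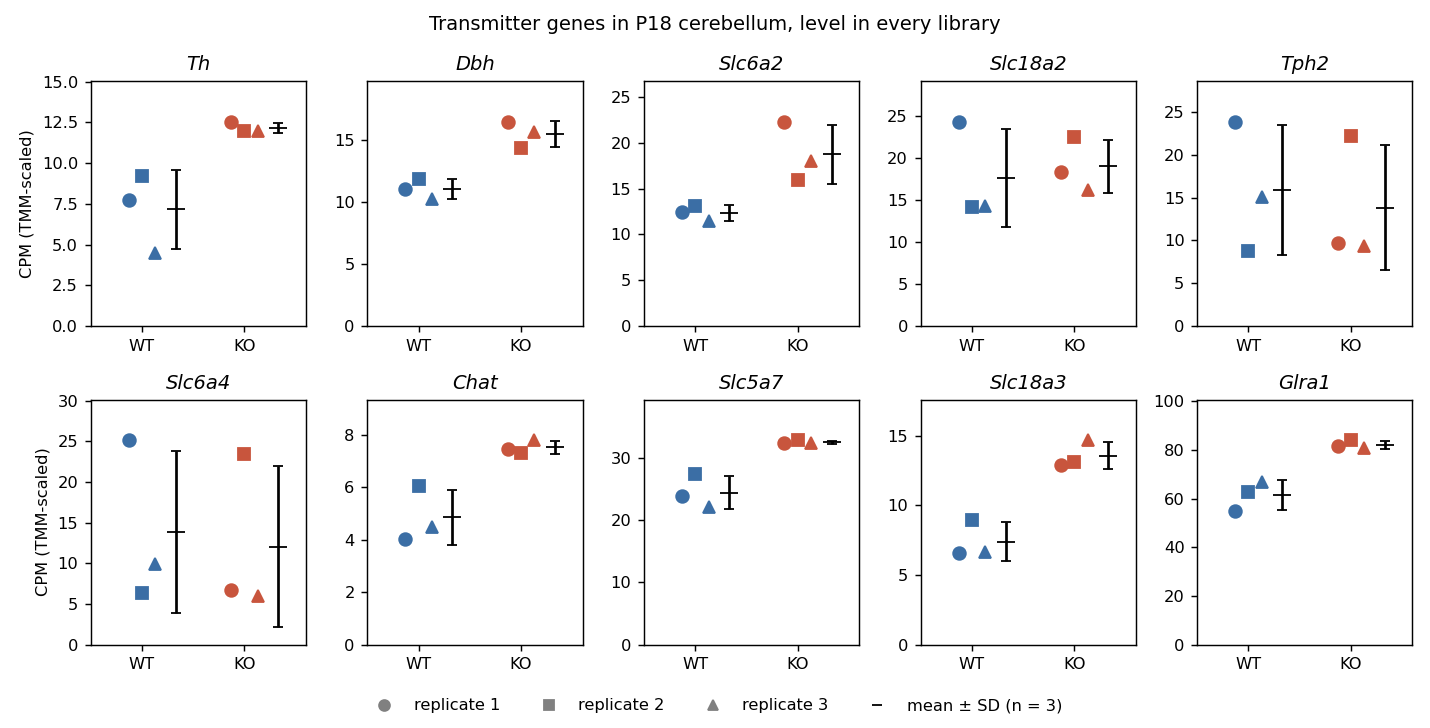
TMM-scaled CPM of the 10 members in the 3 WT and 3 KO libraries, each on its own linear axis from 0; symbols stand for replicates and the bar for the mean ± SD (n = 3). In 7 panels every KO library lies above every WT library, while Slc18a2, Tph2 and Slc6a4 overlap.

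The catecholamine genes were higher in KO. Th, tyrosine hydroxylase, makes the dopamine precursor L-DOPA and is the rate-limiting enzyme of the pathway (chromosome 7, 142892779 to 142899995). It stood at 7.75, 9.22 and 4.49 CPM in WT replicates 1 to 3 and at 12.5, 12.0 and 12.0 CPM in KO replicates 1 to 3. Every KO library was above every WT library, and WT replicate 3, with 29 Th reads, was lowest. The WT mean was 7.16 ± 2.42 CPM and the KO mean 12.2 ± 0.320 CPM (SD over 3 libraries), and Th rose 1.57 fold with a log2 change of 0.65 (SE 0.16, edgeR adjusted p = 0.0246). Without WT replicate 3 the log2 fold change was 0.52 (adjusted p = 0.00291 in edgeR).

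Dbh, dopamine beta-hydroxylase, turns dopamine into noradrenaline inside vesicles (chromosome 2, 27165507 to 27183204). Its levels were 11.1, 11.9 and 10.2 CPM in WT and 16.5, 14.4 and 15.7 CPM in KO. The libraries of a genotype lay close together and the groups did not overlap. The WT mean was 11.1 ± 0.827 and the KO mean 15.5 ± 1.08 CPM, and Dbh rose 1.38 fold with a log2 change of 0.47 (SE 0.10, edgeR adjusted p = 0.00996). Slc6a2, the noradrenaline transporter that takes the transmitter back up (chromosome 8, 92960470 to 93001667), stood at 12.4, 13.2 and 11.5 CPM in WT and at 22.3, 15.9 and 18.03 CPM in KO. KO replicate 1 was highest and WT replicate 3 lowest, again without overlap. It rose 1.498 fold with a log2 change of 0.58 (SE 0.13, edgeR adjusted p = 0.0128).

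Dbh and Slc6a2 kept nearly the same proportion of reads in 5 of the 6 libraries. The ratio of Dbh to Slc6a2 reads was 0.895, 0.904 and 0.892 in WT and 0.903 and 0.869 in KO replicates 2 and 3. KO replicate 1, at 0.740, stood apart. The ratio of Th to Dbh reads was 0.699 to 0.833 outside WT replicate 3, where it was 0.439. In edgeR, the call of Th was lost without WT replicate 1 (adjusted p = 0.0521) or without any 1 KO replicate (0.0791 to 0.0880), that of Dbh without KO replicate 1 (0.05004) or 3 (0.0518), and that of Slc6a2 without KO replicate 3 (0.0508). With the read assignment covariate Th was at 0.03 (adjusted p = 0.941), Dbh at 0.35 (0.175) and Slc6a2 at 0.48 (0.233).

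**Figure D2:**
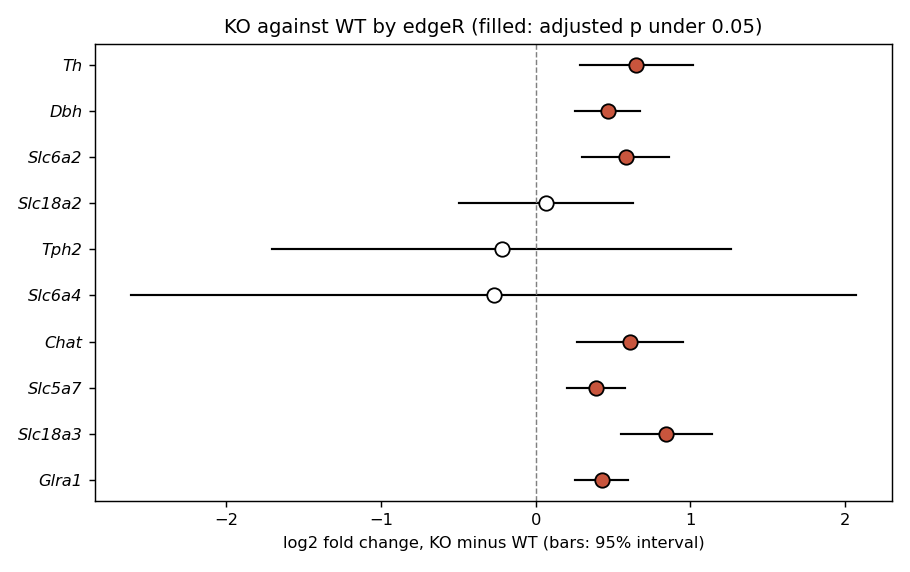
Log2 fold change of each member, KO minus WT, with its 95% interval from edgeR; filled points passed an adjusted p of 0.05. The 7 filled points lie between 0.39 and 0.84, and the interval of Slc6a4 runs from -2.61 to 2.07.

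The serotonin genes split the libraries in another way. Tph2, tryptophan hydroxylase, makes the serotonin precursor in neurons (chromosome 10, 115078641 to 115185022). It stood at 23.8, 8.79 and 15.0 CPM in WT replicates 1 to 3 and at 9.75, 22.2 and 9.40 CPM in KO replicates 1 to 3. Slc6a4, the serotonin transporter (chromosome 11, 76998597 to 77032343), stood at 25.1, 6.34 and 9.92 CPM in WT and at 6.69, 23.4 and 5.98 CPM in KO. WT replicate 1 and KO replicate 2 were the highest of their groups for both genes, and the groups overlapped. WT replicate 1 exceeded WT replicate 2 by 2.71 fold in Tph2 and 3.96 fold in Slc6a4, and KO replicate 2 exceeded KO replicate 1 by 2.28 and 3.50 fold.

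The proportion of the serotonin genes differed in the libraries where both were highest. In WT replicate 1 and KO replicate 2 the ratio of Tph2 to Slc6a4 reads was 0.949 and 0.948, and in the other 4 libraries it was 1.39 to 1.57. Slc18a2, the vesicular monoamine transporter that all monoamine neurons use (chromosome 19, 59260878 to 59296012), followed in a flatter way. It was at 24.3, 14.2 and 14.3 CPM in WT and at 18.4, 22.5 and 16.2 CPM in KO, with WT replicate 1 and KO replicate 2 again at the top. The same libraries did not stand out in noradrenaline genes: WT replicate 1 over WT replicate 2 was 0.934 fold in Dbh, and KO replicate 2 over KO replicate 1 was 0.871 fold. WT replicate 1 is the library with the female pattern, and KO replicate 2 had 6961 reads of the Y-linked genes and 2 of Xist.

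Within genotypes the SD of log2 CPM was 0.71 for Tph2 and 1.05 for Slc6a4, above 97.9% and 99.2% of all tested genes, and 0.10 for Dbh. None of Tph2, Slc6a4 and Slc18a2 passed the test between genotypes. Tph2 differed by -0.22 on the log2 scale (95% interval -1.70 to 1.26, adjusted p = 0.828, edgeR), Slc6a4 by -0.27 (-2.61 to 2.07, adjusted p = 0.864, edgeR) and Slc18a2 by 0.07 (-0.49 to 0.63, adjusted p = 0.875, edgeR). The intervals of Tph2 and Slc6a4 include the changes measured for Th and Dbh, so a difference of that size between genotypes was not detectable in them. Slc18a2 also had reads on the strand opposite the gene, 7.67 to 10.4 CPM in each library and 31.2% of the reads on both strands, against at most 0.547% for the other members. The GENCODE annotation of GRCm38 places an antisense gene, Gm29261, across 99 exon bases of Slc18a2, and the counts used here take the strand of Slc18a2 alone.

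**Figure D3:**
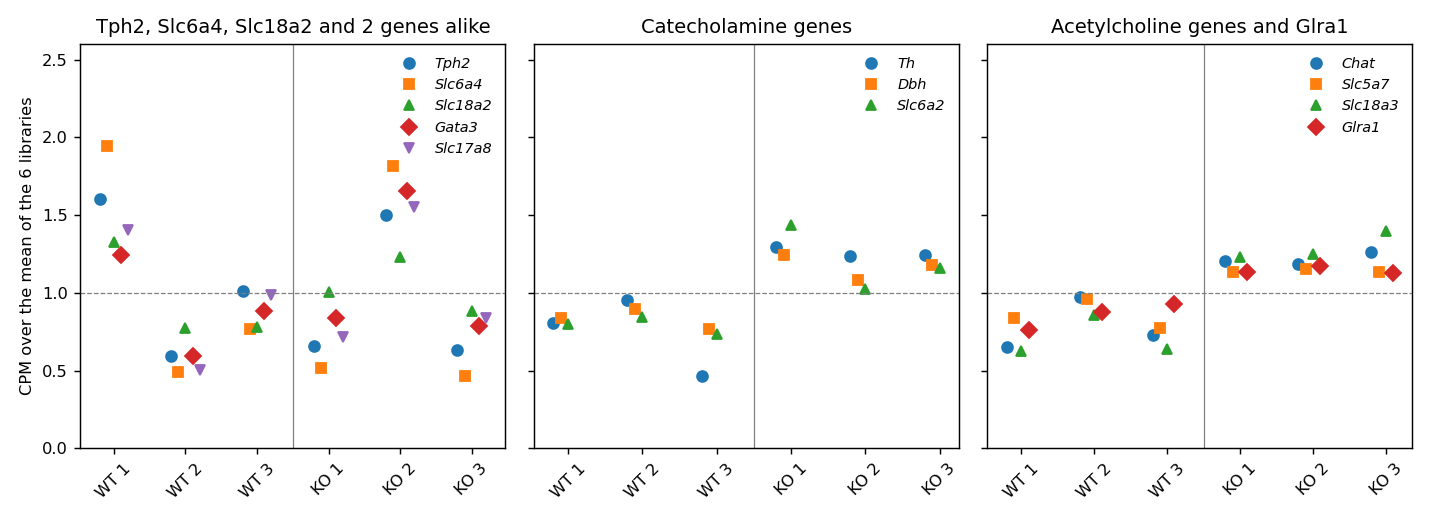
CPM of each gene divided by its mean over the 6 libraries, by library; the dashed line marks that mean and the vertical line separates WT from KO. Tph2, Slc6a4, Slc18a2, Gata3 and Slc17a8, the last 2 picked for likeness, are highest in WT 1 and KO 2 within their genotypes, whereas the catecholamine and acetylcholine genes and Glra1 divide by genotype.

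All 3 genes of acetylcholine neurons were higher in KO. Chat, choline acetyltransferase, makes the transmitter (chromosome 14, 32408203 to 32465909). It stood at 4.01, 6.03 and 4.49 CPM in WT and at 7.44, 7.32 and 7.79 CPM in KO. The KO libraries lay close together and WT replicate 2 came nearest to them. Chat rose 1.53 fold with a log2 change of 0.61 (SE 0.15, edgeR adjusted p = 0.0242). Slc5a7, the high-affinity choline transporter that refills terminals (chromosome 17, 54273590 to 54299038), stood at 23.8, 27.4 and 22.01 CPM in WT and at 32.3, 32.8 and 32.3 CPM in KO. It rose 1.31 fold without overlap, with a log2 change of 0.39 (SE 0.08, edgeR adjusted p = 0.0124).

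Slc18a3, the vesicular acetylcholine transporter (chromosome 14, 32462437 to 32464850), had the highest fold change of the 10 members. It was at 6.53, 8.97 and 6.66 CPM in WT and at 12.9, 13.1 and 14.7 CPM in KO. The lowest KO library was well above the highest WT library. The WT mean was 7.39 ± 1.37 CPM and the KO mean 13.5 ± 0.965 CPM (SD over 3 libraries), so that Slc18a3 rose 1.80 fold with a log2 change of 0.84 (SE 0.13, edgeR adjusted p = 0.00251). Slc18a3 lies inside the bounds of Chat on the same strand and shares 0 exon bases with it, so an unspliced Chat read there would be counted for Slc18a3. Slc18a3 had 1.48 to 1.63 reads for each Chat read in WT and 1.73 to 1.88 in KO, without overlap.

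In edgeR, the call of Chat was lost without WT replicate 1 (0.43, adjusted p = 0.0819) or any 1 KO replicate (0.0698 to 0.0969), and that of Slc5a7 without KO replicate 2 (0.0554) or 3 (0.0580). Slc18a3 passed without each of the 6 libraries. With the read assignment covariate Chat was at 0.50 (adjusted p = 0.281), Slc5a7 at 0.23 (0.260) and Slc18a3 at 0.70 (0.0815) in edgeR.

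Glra1, the receptor subunit on neurons that receive glycine (chromosome 11, 55514239 to 55608198), was the most abundant member. It stood at 54.7, 62.9 and 66.8 CPM in WT and at 81.5, 83.9 and 80.9 CPM in KO. All KO libraries lay within a narrow band above the WT libraries, and WT replicate 1 was lowest. The WT mean was 61.5 ± 6.15 CPM and the KO mean 82.1 ± 1.62 CPM (SD over 3 libraries), and Glra1 rose 1.35 fold with a log2 change of 0.43 (SE 0.08, edgeR adjusted p = 0.00539). It passed under each of the 16 alternatives to this fit, with log2 fold changes of 0.35 to 0.58.

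Per kilobase of exon, Glra1 stood above the other members in every library, at 22.9 to 35.1 CPM per kb. By the mean over the 6 libraries Chat was lowest on this scale (range 1.40 to 2.72 CPM per kb) and Slc6a2 next (1.85 to 3.60), with overlap. Slc6a4 was below both in KO replicate 1 (2.46) and KO replicate 3 (2.19). The other 7 lay in between with means over the 6 libraries of 5.65 for Tph2, 5.49 for Slc5a7, 5.28 for Th, 5.21 for Dbh, 4.83 for Slc18a2, 4.74 for Slc6a4 and 4.34 for Slc18a3. Neighbours among these 7 overlap in their ranges over WT and KO together. Within libraries, Slc5a7 and Dbh were each above Slc18a3 in 6 of 6. Exon lengths were those of the transcript matched to RefSeq, from 1829 bases for Th to 6187 for Slc6a2.

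Profiles across libraries were alike for some members of a transmitter system and not for others. Likeness was measured as the mean absolute difference of log2 CPM, each gene centred on its own mean over the 6 libraries, against 13948 genes with at least 1 CPM on average. By this measure Tph2 was the gene most like Slc6a4 (0.28), and Slc6a4 ranked 12 for Tph2. Dbh ranked 2 for Slc6a2 (0.07), but Slc6a2 ranked 78 for Dbh, behind the choline transporter gene Slc5a7 at 37. Th ranked 5310 for Dbh and 3489 for Slc6a2, and Chat (79) and Slc18a3 (84) were nearer to Th than Dbh (125) or Slc6a2 (220). Th and Dbh were furthest apart in WT replicate 3, with 29 Th reads, where the centred values were -1.01 and -0.35. Chat ranked 3 for Slc18a3 (0.12) and Slc18a3 ranked 12 for Chat, whereas for Slc5a7 Chat ranked 2124 and Slc18a3 7318, with Dbh at 93. Tph2 was most like Slc17a8, a vesicular glutamate transporter (0.17), then Scube2, a secreted protein (0.22), and Gata3, a transcription factor of serotonin neurons (0.23). Dbh was most like the purinergic receptor gene P2ry1 (0.02), which also ranked 1 for Slc6a2 (0.07). Slc18a3 was most like Vipr2, a receptor for vasoactive intestinal peptide (0.07), which ranked 3 for Chat (0.09). Ranks rest on 6 libraries and, for genes that divide by genotype, reflect that division.

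Slc17a8 stood at 3.98, 1.42 and 2.79 CPM in WT and at 2.02, 4.39 and 2.36 CPM in KO. Gata3 stood at 5.66, 2.72 and 4.03 CPM in WT and at 3.84, 7.55 and 3.59 CPM in KO. Fev, the ETS factor that defines serotonin neurons and a gene chosen here after its values were seen, had 46, 17 and 1 reads in WT and 23, 46 and 17 in KO. All of these were highest in WT replicate 1 and KO replicate 2 within their genotypes, which their choice fixes, since Slc17a8 and Gata3 were picked for likeness to Tph2 or Slc6a4. The pattern was not limited to serotonin genes. Glra3, a glycine receptor subunit gene, stood at 8.19, 3.90 and 4.03 CPM in WT and 5.21, 9.16 and 7.23 CPM in KO, and Chrm2, a muscarinic receptor gene, was also highest in those libraries. Hoxa5, of more caudal hindbrain and also chosen after its values were seen, was at 13.1, 17.4 and 8.21 CPM in WT and 8.64, 12.0 and 16.9 CPM in KO, highest in other libraries.

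Of 22 other genes of monoamine synthesis, cofactor supply, transport and breakdown, 18 were tested, and 0 were called higher and 0 lower in edgeR (4 and 0 at an unadjusted p under 0.05, 3 and 0 by DESeq2, 5 and 0 by limma-voom), with a median log2 fold change of 0.05. Leaving out WT replicate 1 gave 3 higher genes, WT replicate 3 gave 4 and KO replicate 2 gave 1, and the covariate gave 1. Of all tested genes, 6.43% were called higher in edgeR, 7.70% in DESeq2 and 10.7% in limma-voom. In edgeR that share was 6.16% without WT replicate 1, 10.2% without WT replicate 3, 1.88% without KO replicate 2 and 3.61% with the covariate. The members nearest to the threshold were Aldh1a1, an aldehyde dehydrogenase (0.29, adjusted p = 0.0557, edgeR), Pcbd1 (0.51, adjusted p = 0.0569, edgeR) and Qdpr (0.35, adjusted p = 0.0931, edgeR), which recycle the tetrahydrobiopterin cofactor, and Cyb561, which supplies electrons to Dbh (0.41, adjusted p = 0.102, edgeR). Ddc, the decarboxylase shared by all monoamine neurons, was at 23.3, 14.2 and 16.1 CPM in WT and 18.4, 23.8 and 20.2 CPM in KO, the order of Slc18a2 in its highest libraries. Slc6a3, the dopamine transporter, had 2 to 22 reads, and Pnmt, which makes adrenaline, had 0 to 5.

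Among receptors for monoamines, 24 of 29 were tested, 5 rose and 0 fell (9 and 0 at an unadjusted p under 0.05, 6 and 0 by each of DESeq2 and limma-voom). Their median log2 fold change was 0.32. The shares of all tested genes called higher were 6.43% in edgeR, 7.70% in DESeq2 and 10.7% in limma-voom. At an unadjusted p under 0.05 in edgeR, all tested genes numbered 5045 of 15519 in either direction. The adrenergic receptor genes Adra1a (0.45, SE 0.09), Adra1b (0.45, SE 0.11) and Adra2c (0.42, SE 0.11) rose, as did the serotonin receptor genes Htr1b (0.53, SE 0.10) and Htr2a (0.54, SE 0.15). Adjusted p ranged from 0.00754 for Htr1b to 0.0306 for Htr2a in edgeR. Htr1b, for example, was at 6.85, 6.78 and 6.04 CPM in WT and at 9.47, 10.2 and 9.35 CPM in KO, without overlap. Leaving out WT replicate 2 gave 3 higher receptor genes, KO replicate 1 gave 3, KO replicate 2 gave 2 and KO replicate 3 gave 1, and the read assignment covariate gave 0. Of all tested genes 2.59%, 2.27%, 1.88%, 1.56% and 3.61% were called higher in these fits, in that order.

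Among genes that break down acetylcholine, supply choline or receive the transmitter, 24 of 31 were tested, 3 rose and 0 fell (7 and 2 at an unadjusted p under 0.05, 5 and 0 by DESeq2, 5 and 1 by limma-voom), with a median of 0.18. In edgeR 6.43% of all tested genes were called higher and 10.2% lower. The nicotinic receptor subunit genes Chrna7 (0.57, SE 0.14) and Chrna3 (0.58, SE 0.15) and the receptor modulator Lynx1 (0.33, SE 0.08) rose. Chrna4, the alpha subunit of a widespread nicotinic receptor, was at 0.31 (adjusted p = 0.0638, edgeR). Leaving out WT replicate 1 gave 6 higher genes of this list, WT replicate 2 gave 1, KO replicate 1 gave 2 and KO replicates 2 or 3 gave 0, as the covariate did. Of all tested genes 6.16%, 2.59%, 2.27%, 1.88%, 1.56% and 3.61% were called higher in these fits, in that order.

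At glycine synapses, 16 of 16 other genes were tested, 5 rose and 0 fell (9 and 0 at an unadjusted p under 0.05, 7 and 0 by each of DESeq2 and limma-voom), with a median of 0.19. Over all tested genes, edgeR called 6.43% higher, and 5045 of 15519 had an unadjusted p under 0.05 in either direction. Slc6a5, the glycine transporter of glycinergic terminals, rose by 0.42 (SE 0.10), from 63.8, 84.0 and 64.2 CPM in WT to 91.0, 94.7 and 99.8 CPM in KO. The vesicular transporter Slc32a1 (0.34, SE 0.10), the glial glycine transporter Slc6a9 (0.21, SE 0.06) and Gad2, which makes GABA (0.36, SE 0.09), also rose. So did Gcsh of the glycine cleavage system (0.24, SE 0.07), named beyond the rule to complete the 5. Glrb, the beta subunit that pairs with Glra1, was at 0.18 (95% interval 0.04 to 0.33, adjusted p = 0.0778, edgeR). Leaving out WT replicate 2 gave 2 higher genes of this list, and leaving out any 1 KO replicate, or adding the covariate, gave 0. The share of all tested genes called higher was 2.59% without WT replicate 2. It was 1.56% to 2.27% without 1 KO replicate and 3.61% with the covariate.

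**Figure D4:**
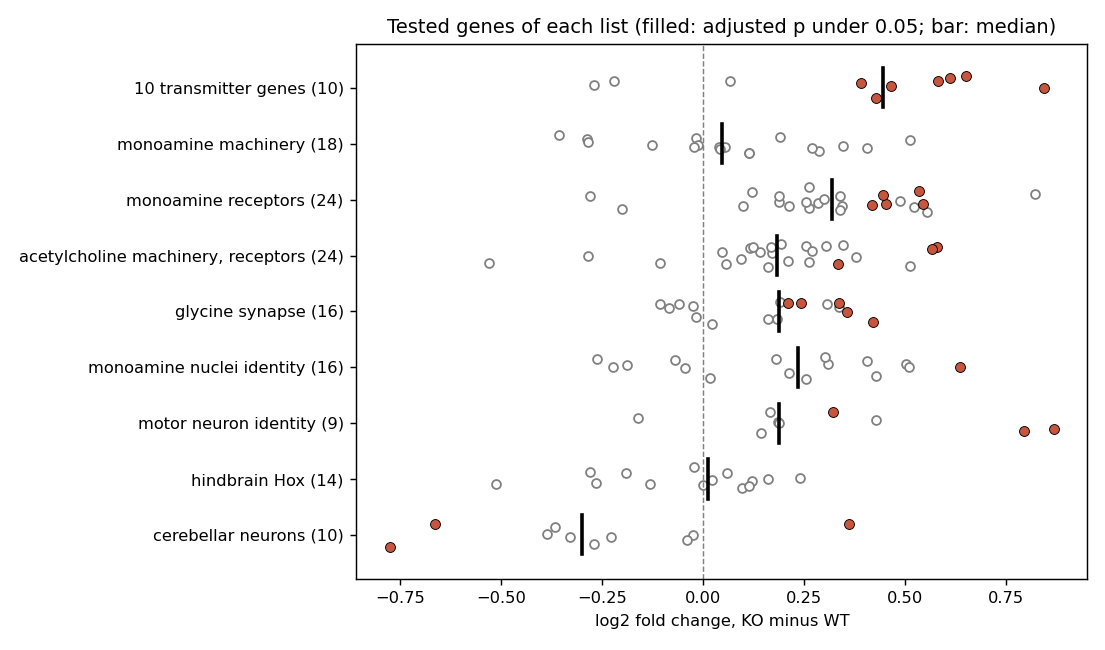
Log2 fold change (KO minus WT) of the tested genes of each list, with the number tested in brackets; filled points passed an adjusted p of 0.05 and the bar is the median. The 10 transmitter genes have a median of 0.45, hindbrain Hox genes 0.01 and genes of cerebellar neurons -0.30.

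Markers of the cells that carry these genes did not move as 1 block. Of 12 motor neuron genes 9 were tested, and 3 rose in edgeR, against 6.43% of all tested genes called higher. DESeq2 called 2 higher and limma-voom 3, against 7.70% and 10.7% of all tested genes. The 3 in edgeR were Prph, an intermediate filament of neurons with long axons (0.80, SE 0.15), Tbx20, a transcription factor of cranial motor neurons (0.87, SE 0.25), and Ret, a receptor for glial cell line-derived factors (0.32, SE 0.07). Tbx20, with 9 to 90 reads, did not pass in DESeq2 (adjusted p = 0.0572). In edgeR it lost its call with a block for replicate number (adjusted p = 0.0824), without WT replicate 1 (0.143) or without any 1 KO replicate (0.0833 to 0.125). With the read assignment covariate 0 of these 9 genes were called. The log2 fold changes with the covariate were 0.90 for Prph, 1.09 for Tbx20 and 0.22 for Ret. From the same list, Isl1 (0.17, adjusted p = 0.763), Lhx3 (-0.16, 0.755) and Lhx4 (0.19, 0.732) did not pass in edgeR. Isl2, with 2 to 13 reads, and Mnx1, with 0 to 3, failed the filter on low counts. The 12 motor neuron genes summed to 63.3 to 76.3 CPM in WT and 89.5 to 92.9 CPM in KO. Ret alone made up 45.3 to 51.8 CPM of this in WT and 59.2 to 61.3 CPM in KO. Prph stood at 9.29, 14.9 and 13.3 CPM in WT and at 21.6, 21.6 and 21.0 CPM in KO, and, like Chat and Slc18a3, it was lowest in WT replicate 1. Of 19 identity genes of noradrenaline and serotonin neurons 16 were tested, and 1 rose in edgeR, a share close to the 6.43% of all tested genes called higher. At an unadjusted p under 0.05 in edgeR 3 were higher and 0 lower. DESeq2 and limma-voom each called 2 higher and 0 lower, against 7.70% and 10.7% of all tested genes called higher. The gene called in edgeR was Npy, a peptide also made by many other neurons (0.64, SE 0.14). Its call was lost without WT replicate 2 (edgeR adjusted p = 0.0630) or KO replicates 1 (0.0634) or 3 (0.0602), and with the read assignment covariate (0.0732).

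Of 15 Hox genes of hindbrain behind the cerebellum 14 were tested, 0 were called higher and 0 lower in edgeR (0 and 1 at an unadjusted p under 0.05, 0 and 0 by each of DESeq2 and limma-voom), and the list summed to 69.3 to 88.3 CPM in WT and 63.2 to 97.2 CPM in KO. Of 10 genes of cerebellar neurons 1 rose and 2 fell (1 and 6 at an unadjusted p under 0.05, 1 and 4 by DESeq2, 1 and 3 by limma-voom), and 9 of the 10 had a negative fold change. Over all 15519 tested genes edgeR called 6.43% higher and 10.2% lower, 5045 had an unadjusted p under 0.05 in either direction, and 7636 had a positive fold change. Leaving out WT replicate 1 gave 6 lower genes of this list and KO replicate 1 gave 4, while leaving out WT replicate 3 or KO replicate 3 gave 1 and the covariate 0. Lower calls over all genes moved too, from 1587 to 1392, 933, 2096, 796 and 861 in these fits, in that order. Calb1 of Purkinje cells rose by 0.36 (SE 0.08), while the Purkinje cell genes Car8 and Pcp2 were at -0.27 (adjusted p = 0.0814, edgeR) and -0.03 (adjusted p = 0.972, edgeR). Gabra6 of granule cells (log2 -0.66, SE 0.14) and Eomes of unipolar brush cells (log2 -0.78, SE 0.13) fell. Calb1 lost its call without KO replicates 1 (edgeR adjusted p = 0.0655) or 3 (0.0712), and Gabra6 without WT replicate 3 (0.0795) or KO replicate 3 (0.0511). Both also lost it with a block for replicate number (0.0666 for Calb1 and 0.0617 for Gabra6). With the covariate none of these 3 passed, at log2 fold changes of 0.34 for Calb1 (adjusted p = 0.149), -0.71 for Gabra6 (0.250) and -0.50 for Eomes (0.0930) in edgeR. The list summed to 2590 to 3255 CPM in WT and 2386 to 3034 CPM in KO. The part of tissue composition in the differences of the 10 members was not tested.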

How the data were processed

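Total RNA of 6 cerebellum libraries was analysed. The authors deposited raw counts of reads per gene, made with Trimmomatic and STAR on mm10, per the submitters' processing notes; versions, gene annotation and strand setting are not stated. Counts came from the strand column holding most gene reads (ratio 55.4 to the other), and the 4 lines that name no gene were set aside before library sizes were taken. Reads in introns only are not counted for a gene.

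Genes were filtered with filterByExpr (8892 of 24411 removed), scaled by TMM and tested with edgeR 4.0.16 (glmQLFit and glmQLFTest, robust; R 4.3.3), with Benjamini-Hochberg adjustment over 15519 genes. DESeq2 1.42.0, limma 3.58.1 (voom with quality weights), other scalings, filters and count columns, removal of Rn45s, a replicate block, a read assignment covariate and leaving out each library were alternatives. SE and 95% intervals are approximate. Log2 CPM used a prior count of 2. The procedure was tested on counts simulated from a model of its own kind, which does not test the calls made here. Whether PCR copies were removed is not stated, so counting limits cover counting error only. The protocol calls the replicates independent without naming animals, so p-values measure the spread between these samples.

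The members and lists were chosen with earlier results of these data known. By rule, the text names all members, up to 4 genes with the smallest p of each other list, and the 3 genes most like a member; not all of these are printed. Other genes (Ddc, Slc6a3, Pnmt, Glrb, Htr2a, Gcsh, Car8, Pcp2, Glra3, Chrm2, Isl1, Isl2, Lhx3, Lhx4, Mnx1, Fev and Hoxa5) were added after their values were seen. Positions are RefSeq's on GRCm38.p6, the assembly called mm10.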

Additional observations from a re-analysis of the deposited data

How the results depend on the processing

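Of 160 log2 fold changes of the 10 members under 16 alternatives, 130 kept their direction and side of the threshold, 21 kept the direction but no longer passed, and 9 changed sign, all in Slc18a2, Tph2 and Slc6a4, which never passed. The cause was not tested. Scaling moved the median of all genes by less than 0.1. Genes called numbered 2585 (998 higher, 1587 lower), against 3990 (1664 higher) with limma-voom, 1422 (561 higher, 861 lower) with the read assignment covariate, which left 1 member higher, and 1041 (without KO replicate 3) to 3719 (without WT replicate 3) with 1 library left out. The latter gave 245 to 1623 higher, 796 to 2096 lower and 2 to 7 members higher. With a replicate block 1073 genes were called (252 higher, 821 lower) and 5 members, without Dbh (edgeR adjusted p = 0.0516) and Chat (0.0614). Same-numbered deviations from the group means correlated at -0.183, -0.140 and -0.0997, so no pairing by number was seen. Deviations from a mean of 3 libraries are not independent, so these correlations do not exclude a pairing.

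Sign changes were as follows. Slc18a2 was at -0.0052 with unstranded counts and -0.26 with the covariate, where Qdpr was at -0.093, Cyb561 at -0.14 and Calca at -0.025. With 1 library left out, Slc18a2 ranged from -0.10 to 0.42, Tph2 from -0.74 to 0.35, Slc6a4 from -1.19 to 0.69, Slc17a8 from -0.31 to 0.74, Scube2 from -0.21 to 0.67, Gata3 from -0.17 to 0.70, Fev from -0.74 to 0.67 and Hoxa5 from -0.40 to 0.14. Fev was at 0.055 with the replicate block. WT replicate 3, with the fewest reads, limits the precision of low genes.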
